A study of Mus musculus with 55 samples.

Results

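Libraries labelled WT common lymphoid progenitors (CLPs) were compared with libraries labelled WT granulocyte-macrophage progenitors (GMPs) across all genes expressed in either population. The comparison took every library labelled WT CLP and every library labelled WT GMP in the first count table. These were 8 libraries, 4 of each population with replicate numbers 2 to 5, of 55 libraries in the series. The series asks how loss of Tet2, which encodes a dioxygenase that oxidises 5-methylcytosine in DNA, and of Sting changes hematopoietic stem and progenitor cells. The WT mice were on a C57BL/6 background and carried no deletion according to the labels. The sources used here do not say whether they received the poly(I:C) that was given to the knockout mice. Each library is bulk RNA-seq of bone marrow cells sorted by flow cytometry, 200 cells by the labels and about 300 by the methods, amplified as cDNA with a SMART-seq kit by the labels and a modified Smart-seq2 protocol by the methods. By the study's gates, CLPs were Lin- cKit+ Sca1int CD127+ cells and GMPs were Lin- cKit+ Sca1- CD34+ cells with high CD16 and CD32. The lineage cocktail, given in the methods for the stem cell stain, was against B220, CD4, CD5, CD8, Gr1 and Ter119. Tet2-/- CLPs and GMPs, again 4 libraries each, served for comparison. These came from Tet2 f/f, Mx1-Cre mice, in which poly(I:C) given at 4 weeks of age turns on Cre through the interferon-responsive Mx1 promoter, which is active in blood cells and in other tissues. The mice were kept for 16 weeks after induction. The study counts mice as its replicates, so p-values measure the spread between mice together with that of sorting and library preparation. The sources used here do not say whether libraries of the 2 populations with the same number came from the same mouse.

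CLPs and GMPs stand on opposite branches of blood formation. GMPs give rise to neutrophils and monocytes. They depend on PU.1 (Spi1) and on C/EBP-alpha (Cebpa), and already make the proteases and the peroxidase of the primary granules. CLPs give rise to B cells and, less efficiently, to T cells, natural killer (NK) cells, innate lymphoid cells and some dendritic cells. They express the interleukin-7 receptor, and those on the way to the B lineage turn on the recombinase genes Rag1 and Rag2 and the terminal transferase Dntt, followed by the surrogate light chains, Cd79a and the factors Ebf1 and Pax5. A cell that has reached the end of the B lineage, the plasma cell, turns on Prdm1, Irf4, Xbp1 and Jchain and devotes much of its RNA to 1 assembled heavy and 1 assembled light chain.

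Total counts were 61777945 to 74270103 in WT CLPs and 57900451 to 73459764 in WT GMPs. The 2 populations differed in other ways before any gene was tested. CLP libraries detected 14540 ± 635 genes (SD, n = 4) and GMP libraries 20332 ± 441, and the 50 most abundant genes took 57.7% ± 6.28 of the CLP counts against 26.4% ± 1.08 of the GMP counts. Both splits were complete (two-sided exact permutation p = 0.0286 each, the smallest that 4 against 4 allows, adjusted p = 0.0572 over 4 measures). The mitochondrial share, 3.11% ± 0.998 in CLPs and 4.26% ± 0.426 in GMPs, gave an exact permutation p of 0.114. The 4 GMP libraries resembled one another closely, with Pearson correlations of 0.961 to 0.975 across 10115 genes on log2(CPM + 1), where CPM is the count of a gene scaled to the size of its library. The 4 CLP libraries ranged from 0.599 to 0.669. In addition, a gene with a mean of at least 20 CPM was at 3 counts or fewer in at least 1 library for 157 of 5953 such genes (2.64%) in CLPs and for 1 of 5766 (0.0173%) in GMPs. Some transcripts with a mean of at least 20 CPM in CLPs were therefore near 0 in at least 1 CLP library.

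The labels were checked against the genes that define each population. Every CLP library had Il7r and every GMP library had Elane and Mpo at high level, but the CLP libraries also stood apart by immunoglobulin RNA. Immunoglobulin genes took 25.4%, 39.6%, 41.8% and 37.2% of the counts in WT CLP replicates 2 to 5 (95% Wilson intervals within 0.0123 percentage points). In WT GMPs they took 0.0152%, 0.0165%, 0.0122% and 0.0154% (within 0.000318 points). Intervals and count floors given here cover counting error only. Over the 38 libraries of the table that are not CLPs, the share ran from 0.000458% to 0.0235%. In Tet2-/- CLPs it was 0.0815%, 8.54%, 26.1% and 29.0%. The high share was thus found in all 4 WT CLP libraries and in 3 of 4 Tet2-/- CLP libraries, while Tet2-/- CLP replicate 2 stood close to the other populations. Rag1, Pax5 and Vpreb1 were at 0 counts in every WT CLP library, which allows up to 0.0472 to 0.0811 CPM (3 counts per library). The libraries labelled WT CLP therefore hold Il7r RNA together with RNA of genes that antibody-secreting cells use, and lack several genes that mark early B-lineage commitment. Il7r goes with the gate, but the immunoglobulin share does not bear out the label as a name for progenitors alone. Throughout, CLP stands for the label of these libraries. In bulk RNA, fewer cells of a type and less RNA per cell cannot be told apart.

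**Figure D1:**
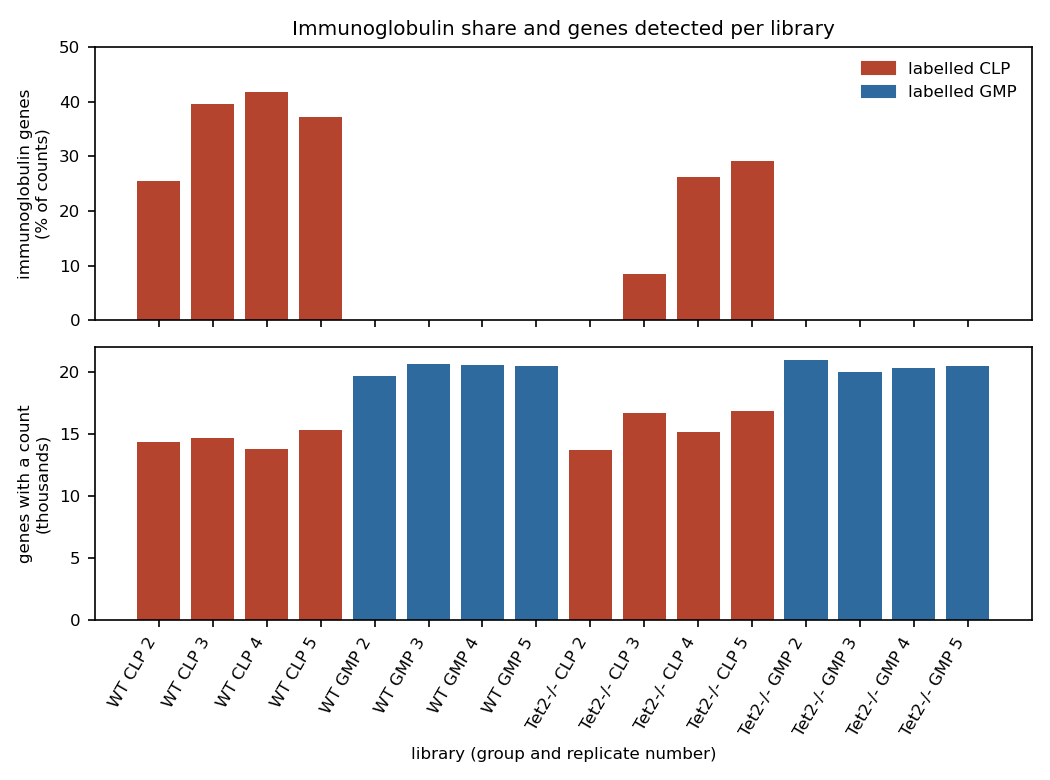
Immunoglobulin genes as a percentage of all counts (top) and genes with at least 1 count (bottom), 1 bar for each of the 16 CLP (red) and GMP (blue) libraries. The WT CLP bars reach 25.4% to 41.8% in the top panel, all GMP bars stay near 0, and Tet2-/- CLP replicate 2 is at 0.0815%.

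The genes of the sorting gates were examined first. Il7r, which encodes CD127, was at 309, 505, 559 and 463 CPM in CLP replicates 2 to 5 and at 0.128, 0.498, 0.177 and 0.0795 CPM in GMPs. The groups did not overlap, and the log2 fold change (CLP minus GMP throughout) was 10.84 ± 0.73 (SE, adjusted p = 0.000181, edgeR). Ly6a, which encodes Sca1, was at 81.7, 279, 287 and 162 CPM in CLPs and at 0.745 to 1.71 CPM in GMPs, a log2 fold change of 7.24 (adjusted p = 0.000236). Kit, the stem cell factor receptor on which both gates were positive, was at 66.8 to 84.6 CPM in CLPs and 157 to 200 CPM in GMPs (log2 fold change -1.28, adjusted p = 0.00189). Staining for CD127 and Sca1 was part of the gates, so the direction of Il7r and Ly6a follows from the sort. Ptprc (CD45) was higher in CLPs by 1.33 on the log2 scale.

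CD34 and CD16 and CD32 were gated on GMPs only, and their RNA was less clearly split. Cd34 was at 146, 80.5, 0.135 and 68.5 CPM in CLPs and at 357 to 481 CPM in GMPs. It was lower in every CLP library, but CLP replicate 4 stood far below the other 3 and the change was not called (log2 fold change -2.50 ± 1.21, adjusted p = 0.232). Without CLP replicate 4 it was called (-2.04, adjusted p = 0.00677), as in the fit of all 46 libraries (-2.61, 0.00497). Fcgr3 (CD16) was at 47.6 and 111 CPM in CLP replicates 2 and 3 and at 0.108 and 0 CPM in replicates 4 and 5, against 141 to 234 CPM in GMPs, and was not called (adjusted p = 0.5). Fcgr2b (CD32) overlapped between the groups, with 30.4 to 106 CPM in CLPs and 81.9 to 103 CPM in GMPs, and was called only without CLP replicate 2 (-1.03, adjusted p = 0.0192). Of the lineage antigens, Cd4 was at 15.5, 0, 12.8 and 16.5 CPM in CLPs and at 0 in 3 of 4 GMP libraries (edgeR adjusted p = 0.116, 0.046 without CLP replicate 3 and 0.0301 by DESeq2). Cd5 was at 0 in every CLP library and at 0.139 to 0.538 CPM in GMPs, and Ly6c1, 1 of the genes of the antigen Gr1, was at similar levels (3.89 to 20.8 against 6.99 to 15.7 CPM). Cd8a and Ly6g were too low to be tested.

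Over all 15433 genes tested, 1148 (7.44%) were called higher in CLPs and 1406 (9.11%) higher in GMPs at an adjusted p of at most 0.05 and at least 2-fold. These shares are the background for every count of called list members in WT cells. The median log2 fold change was -0.10. Leaving out CLP replicate 2, 3 or 5 raised the GMP count to 2289, 2125 and 2121. With the replicate number as a block, which would apply if a number marks 1 mouse, 542 and 139 genes were called. Among those not called with the block were Elane, Cebpe, Csf3r, Lyz2, Cxcr2 and all 9 genes of later neutrophil granules. Many calls in favour of GMPs came from genes that the CLP libraries did not hold. All 912 tested genes at 0 in every CLP library were called, and 891 of them had a mean under 10 CPM in GMPs. Such genes could pass the low-count filter only through GMPs, so their call follows from how they were kept. Of 94 tested genes at 0 in every GMP library, 74 were called higher in CLPs. These could pass the filter only through CLPs, so the adjusted p of such a gene is no separate support. A mean of at least 50 CPM in the higher population was reached by 631 of the CLP calls and 263 of the GMP calls. Immunoglobulin genes were 47 of the CLP calls, of 72 tested.

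**Figure D2:**
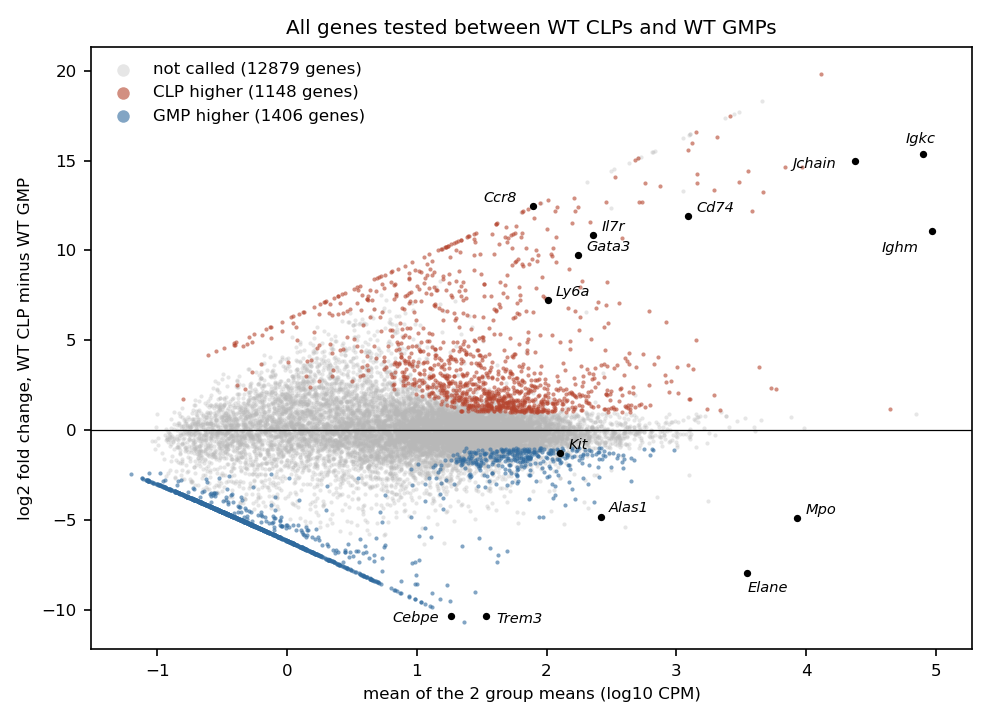
Log2 fold change (CLP minus GMP) of each of the 15433 genes tested against the log10 of the mean of both group means in CPM, with called genes in red (CLP higher, 1148) and blue (GMP higher, 1406). The diagonal edges are genes at 0 in every library of 1 population, whose fitted fold is no measured fold, and immunoglobulin genes lie at the upper right.

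Among called genes with a mean of at least 50 CPM, the 10 of largest fold in CLPs were Jchain and 9 immunoglobulin genes. Igkc, the kappa constant region, was at 70128, 158590, 225180 and 177560 CPM in CLPs and at 1.52 to 4.81 CPM in GMPs (log2 fold change 15.39 ± 0.78, adjusted p = 6.5e-05). Ighm, the mu heavy chain constant region, was at 120690, 244570, 217410 and 162410 CPM in CLPs and at 66.9 to 95.9 CPM in GMPs (11.10 ± 0.41, adjusted p = 1.93e-05). Jchain, which links IgM and IgA into polymers, was at 11065, 57506, 86489 and 35742 CPM against 0.256 to 2.58 CPM (14.96 ± 1.41, adjusted p = 0.000554). All 3 genes were high in each of the 4 CLP libraries, with replicate 2 the lowest. The lambda constant gene Iglc2 was at 14037, 7096, 8712 and 922 CPM in CLPs and at 1.10 to 2.96 CPM in GMPs (adjusted p = 0.000459). Iglc1 and Ighg2b, also constant genes, varied more between CLP libraries. In CLP replicates 2 to 5 Iglc1 was at 198, 2498, 25905 and 152 CPM. Ighg2b was at 1.90, 36354, 3.81 and 1.63 CPM and was not called.

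The variable genes below also differed from library to library. Igkv14-126 was at 14.6, 14108, 36303 and 53125 CPM in CLP replicates 2 to 5 and at 0 in every GMP library, at least 780980-fold higher (adjusted p = 0.00907). Ighv11-2 followed the same order at 2.72, 2351, 7663 and 10853 CPM (at least 157400-fold, adjusted p = 0.0126). Igkv14-126 and Ighv11-2 were both low in replicate 2 and highest in replicate 5. Both were at 0 in every GMP library and could pass the low-count filter only through CLPs. Their adjusted p is thus no separate support. Igkv8-19 was high in replicates 3 and 4 only (1.05, 4262, 7133 and 0.899 CPM), and Ighv4-1 and Ighv1-9 in replicates 3 and 5 only (759 and 3293 CPM, and 959 and 2865 CPM, against at most 4.95 CPM in the other CLP libraries). Igkv19-93 reached 16452 CPM in replicate 4, Igkv5-43 10184 CPM in replicate 3 and Igkv3-2 9805 CPM in replicate 5. Each of these 3 genes was below 5 CPM in at least 2 of the other CLP libraries. Igkv8-19, Ighv4-1 and Ighv1-9 lost the call without either CLP library in which they were high (adjusted p = 0.07 to 0.0878), and they, Igkv19-93, Igkv5-43 and Igkv3-2 lost it without any 1 of the GMP libraries (up to 0.141). The most used variable gene took 34.5% of all variable-gene counts in replicate 2 (Igkv1-135), 13.4% in replicate 3 (Igkv8-24), 22.1% in replicate 4 (Igkv1-135) and 39.8% in replicate 5 (Igkv14-126). Only 11, 22, 12 and 11 of 348 variable genes exceeded 1% of those counts in replicates 2 to 5. A small number of variable genes thus dominated each CLP library, and replicates 2 and 4 shared the leading one. Variable genes of a family are near-identical in sequence, so counts may be shared between them.

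Several genes known from antibody-secreting cells were higher in CLPs as well. Of the 8 given here, Irf4 and Xbp1 belong to gene lists, and the other 6 were chosen after their values were seen, so they do not stand for all genes of antibody secretion. Mzb1, a chaperone of IgM assembly, was at 929, 1820, 2275 and 927 CPM in CLPs and at no more than 0.156 CPM in GMPs (log2 fold change 13.56 ± 1.07, adjusted p = 0.000277). Irf4 was at 120, 507, 530 and 163 CPM and Prdm1, the factor that ends the B cell programme, at 83.8, 171, 209 and 57.7 CPM, against at most 0.166 and 0.139 CPM in GMPs (adjusted p = 0.00156 and 0.00153). All 3 genes were higher in CLP replicates 3 and 4 than in replicates 2 and 5. Sdc1 (CD138), a plasma cell surface marker, was at 226 to 771 CPM against 3.23 to 5.41 CPM (6.80 ± 0.50, adjusted p = 0.000231). Xbp1, which drives expansion of the endoplasmic reticulum, was at 657, 2495, 1207 and 630 CPM against 88.8 to 112 CPM (3.66 ± 0.48, adjusted p = 0.00239). Tnfrsf17 (BCMA) was at 27.6 to 120 CPM in CLPs and at 0 in 3 of 4 GMP libraries, and Derl3, of the degradation machinery of the endoplasmic reticulum, was at 96.4 to 295 against 0.353 to 2.59 CPM. Slamf7, on plasma and NK cells, was at 178 to 496 CPM (log2 fold change 12.42).

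Of 20 genes of folding and stress in the endoplasmic reticulum tested, 11 were called higher in CLPs and the other 9 were not called, with a median of 1.17. Herpud1 was at 1027, 2529, 2885 and 1038 CPM against 154 to 173 CPM (3.50 ± 0.40, adjusted p = 0.00135), and Creld2 at 474 to 1298 against 66.3 to 91.7 CPM (3.50 ± 0.34, adjusted p = 0.000669). Hsp90b1 (GRP94) and Pdia4, both folding enzymes or chaperones, were higher by 1.72 and 2.07, though Hsp90b1 lost the call without GMP replicate 2, 3 or 5 (adjusted p = 0.0669 to 0.0714). Hspa5 (BiP) was at 1091 to 2620 against 867 to 1346 CPM and was not called (adjusted p = 0.161), and Calr was lower in CLPs by less than 2-fold (-0.93, adjusted p = 0.0066) and just past it in the fit of all 46 libraries (-1.05). In Tet2-/- cells 3 of 20 were called higher in CLPs, against 3.57% of all genes tested in Tet2-/- cells.

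Jchain was the gene of largest fold that is not an immunoglobulin gene, and its promoter is shown for that reason. The window, from RefSeq (GRCm38.p6), runs from 250 bases before the start of transcription to 50 after it, at chr5:88527848-88528147 on the minus strand. Capitals mark a match to the C/EBP letters TTGCNNAA 120 bases before the start and an E-box, CAGGTG read on the opposite strand, just after it.

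Jchain: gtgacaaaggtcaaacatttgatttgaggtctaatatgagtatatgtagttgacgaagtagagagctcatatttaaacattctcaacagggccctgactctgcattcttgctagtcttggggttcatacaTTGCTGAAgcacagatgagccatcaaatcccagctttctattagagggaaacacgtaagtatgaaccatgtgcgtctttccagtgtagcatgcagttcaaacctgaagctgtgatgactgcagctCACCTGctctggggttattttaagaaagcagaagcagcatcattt

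Both strands of 32851 such windows were searched for 4 motifs. TTGCNNAA was in 10.8% of the windows, CAGGTG in 20.2%, the PU.1 motif GAGGAAGT in 3.2% and the EBF1 motif CCCNNGGGA in 6.56%. A match is a description of the sequence and not evidence that the factor binds there.

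The early B-lineage genes were split between those that were high in CLPs and those that were not found. Dntt, which adds bases at V(D)J junctions, was at 340, 339, 0.757 and 581 CPM in CLPs and at no more than 0.199 CPM in GMPs (log2 fold change 11.50 ± 2.1, adjusted p = 0.00533). It was abundant in 3 CLP libraries and nearly missing from replicate 4. Rag2 was at 26.6, 0.110, 0 and 26.1 CPM in CLPs and at 1.19 to 2.44 CPM in GMPs, so that the groups overlapped (adjusted p = 0.391). Of 13 genes of V(D)J recombination tested, only Dntt and Xrcc5, the Ku80 subunit of end joining, were called higher in CLPs (Xrcc5 at 19.9 to 39.9 against 6.53 to 11.0 CPM), and the median was 0.11 (-0.001 without CLP replicate 3 and 0.489 without replicate 4). Of 17 genes of the pre-B receptor and B lineage, 8 were called higher in CLPs and 2 in GMPs (median 4.76).

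Cd79a and Cd79b encode the signalling chains of the B cell receptor. Cd79a was at 244, 570, 508 and 408 CPM in CLPs and at no more than 0.320 CPM in GMPs (11.59 ± 1.37, adjusted p = 0.0015). Cd79b was at 151 to 413 against 32.2 to 44.6 CPM (2.91 ± 0.36, adjusted p = 0.00191), and was therefore also present in GMPs. Blnk, the adaptor below the receptor, was at 162 to 226 CPM (8.54, adjusted p = 0.00381). Fcrla and the kinase Blk were called as well, though Blk was at 29.6, 0.308, 33.1 and 7.12 CPM and lost the call without any 1 of the GMP libraries (adjusted p = 0.0542 to 0.0837). Ms4a1 (CD20) was at 28.8, 153, 156 and 7.36 CPM (7.04 ± 1.48, adjusted p = 0.0106). Ebf1 was at 2.64, 0, 0.270 and 2.02 CPM. The 2 genes higher in GMPs were the surrogate light chains. Vpreb1 was at 0 in every CLP library and at 0.448 to 0.840 CPM in GMPs (at least 10.6-fold), and Igll1 was at 0.0661 CPM in 1 CLP library, 0 in the others and 0.244 to 1.497 CPM in GMPs. Vpreb1 could pass the low-count filter only through GMPs, so its call follows from how it was kept. The Igll1 call was lost without CLP replicate 4 or any 1 of the GMP libraries (adjusted p = 0.0514 to 0.0743), in the fit of all 46 libraries (0.0797) and without the low-count filter (0.0809). Cd24a, which early B-lineage and myeloid cells share, overlapped between the populations (166 to 325 against 194 to 233 CPM).

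The promoter of Cd79a is printed as that of the B-lineage gene of largest fold that was at a high level in all 4 CLP libraries. It lies at chr7:24897247-24897546 on the plus strand (RefSeq, GRCm38.p6, 250 bases before the start to 50 after). Capitals mark an E-box, CAGGTG, 154 bases before the start. E-boxes of this kind can be bound by E2A and by its relatives.

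Cd79a: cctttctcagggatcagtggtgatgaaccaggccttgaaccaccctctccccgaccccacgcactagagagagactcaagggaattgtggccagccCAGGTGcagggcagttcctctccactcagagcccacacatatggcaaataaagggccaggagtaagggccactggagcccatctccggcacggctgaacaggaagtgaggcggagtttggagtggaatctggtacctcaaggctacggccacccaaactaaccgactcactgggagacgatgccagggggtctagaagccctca

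Of 24 transcription factors of B, T, NK and innate lymphoid cells tested, 12 were called higher in CLPs and the other 12 were not called (median 1.88). Gata3, required for T cells and group 2 innate lymphoid cells, was at 190, 298, 513 and 395 CPM in CLPs and at no more than 0.793 CPM in GMPs (9.75 ± 1.64, adjusted p = 0.00413). Id2, the inhibitor of E proteins that innate lymphoid cells need, was at 396, 469, 1161 and 834 CPM against 0.820 to 14.05 CPM (7.10 ± 1.04, adjusted p = 0.00368). Both genes were highest in replicates 4 and 5. Tcf7 was at 25.7, 40.4, 71.4 and 83.6 CPM (8.93, adjusted p = 0.00189), Tox at 35.6 to 56.6 CPM (7.35) and Ikzf3, the Aiolos gene, at 59.3 to 256.4 CPM against 6 counts over the 4 GMP libraries. Pou2af1, the B cell coactivator, was higher by 9.68. Bcl11b was called at 8.29, 1.78, 49.3 and 9.87 CPM, mainly from replicate 4. Smaller differences were seen for Satb1 (1.65) and Tcf4 (1.40), which GMPs also expressed at 11.5 to 18.5 and 28.4 to 32.5 CPM. Satb1 lost the call in the fit of all 46 libraries (adjusted p = 0.107) and Tcf4 without any 1 of the GMP libraries (adjusted p = 0.0504 to 0.0595). Ikzf1 (Ikaros), at 24.8 to 60.8 against 22.7 to 38.9 CPM, and Sox4 (-0.98, below 2-fold) were not called. Sox4 passed 2-fold without CLP replicate 3 (-1.16) or GMP replicate 5 (-1.07), with upper-quartile scaling (-1.05) and in the fit of all 46 libraries (-1.11).

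Rora, a regulator of group 2 innate lymphoid cells, was at 179, 304, 369 and 304 CPM against 1.56 to 3.63 CPM (6.77 ± 0.39, adjusted p = 9.11e-05). It was lowest in CLP replicate 2. Il2rb, Ccr8 and Tcrg-C1 were chosen after their values were seen. Il2rb, which binds IL-2 and IL-15, was at 211, 241, 145 and 220 CPM and at 0 in every GMP library (at least 6164-fold, adjusted p = 0.000144). Ccr8 was at 152, 136, 158 and 188 CPM against 0 (at least 4776-fold, adjusted p = 9.11e-05), and Tcrg-C1, a T cell receptor gamma constant gene, at 137, 80.2, 185 and 112 CPM against 0 (at least 3876-fold, adjusted p = 0.000277). All 3 genes were high in each of the 4 CLP libraries. Ncr1 (NKp46) was at 404, 49.6, 75.0 and 183 CPM against 0 (at least 5369-fold, adjusted p = 0.0029), and Trbc2, of the T cell receptor beta chain, at 101 to 174 CPM (9.23, adjusted p = 0.00369). Cd3e, the signalling chain of the T cell receptor, was at 0 in every CLP library. Il1rl1, the IL-33 receptor, was at 2.63, 50.2, 117 and 36.9 CPM (4.11, adjusted p = 0.024, and 0.0753 to 0.0804 without GMP replicate 2, 4 or 5). Il10 was at 360, 356, 163 and 46.6 CPM in CLPs and at no more than 0.0443 CPM in GMPs (12.18 ± 1.10, adjusted p = 0.000459). Stab2, a scavenger receptor known from sinusoidal endothelium, was at 34.5, 52.9, 281 and 162 CPM in CLPs and at 0 in every GMP library (at least 4000-fold). Like Stab2, Il2rb, Ccr8, Tcrg-C1 and Ncr1 could pass the low-count filter only through CLPs. The adjusted p of these genes is thus no separate support for a difference.

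Of 23 lymphoid receptors and signalling genes tested, 17 were called higher in CLPs and the other 6 were not called, with a median of 5.35. Il2rg, the common gamma chain that pairs with Il7r, was at 454, 650, 710 and 769 CPM against 37.5 to 59.9 CPM (3.65 ± 0.25, adjusted p = 0.000184). Ly6d, which marks CLPs that are B-lineage biased, was at 558, 859, 1048 and 577 CPM against at most 1.22 CPM (10.68 ± 1.41, adjusted p = 0.00243). Ltb was at 136 to 318 CPM (9.80, adjusted p = 0.00103), and Gimap6 at 371 to 711 against 3.43 to 7.44 CPM (6.93 ± 0.41, adjusted p = 9.88e-05). These 4 genes were high in all CLP libraries. The kinase Lck was at 22.4 to 137 CPM (5.35) and was lowest in replicate 4. Thy1 was at 9.41, 9.81, 12.9 and 36.9 CPM (7.07), and Cd53, a tetraspanin of most leukocytes, at 722 to 929 against 316 to 378 CPM (1.29). Flt3, the receptor by which CLPs are often sorted but which was not in this gate, was at 17.8, 85.7, 0 and 79.8 CPM in CLPs and at 24.7 to 50.5 CPM in GMPs. The groups overlapped, and Flt3 was not called (0.35 ± 1.35, adjusted p = 0.921).

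Homing receptors were mostly higher in CLPs. Of 15 tested, 8 were called higher in CLPs and 1 in GMPs (median 1.65). Ccr9, which leads lymphoid progenitors to the thymus and gut, was at 45.5, 160, 247 and 217 CPM in CLPs (9.41 ± 0.91, adjusted p = 0.000653), and Ccr7 at 98.5, 26.1, 116 and 8.78 CPM (8.69, adjusted p = 0.00496). Itgb7 was at 66.2 to 189 against 2.21 to 6.67 CPM (4.88, adjusted p = 0.000829). Cxcr4, which retains progenitors in the marrow, was higher by 1.70 (75.2 to 105 against 23.5 to 33.0 CPM). The exception was Cxcr2, the receptor by which neutrophils leave the marrow, at 0 in every CLP library and at 8.96 to 13.4 CPM in GMPs (at least 165-fold lower in CLPs, edgeR adjusted p = 0.00361). Cxcr2 could pass the low-count filter only through GMPs, so its call follows from how it was kept.

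**Figure D3:**
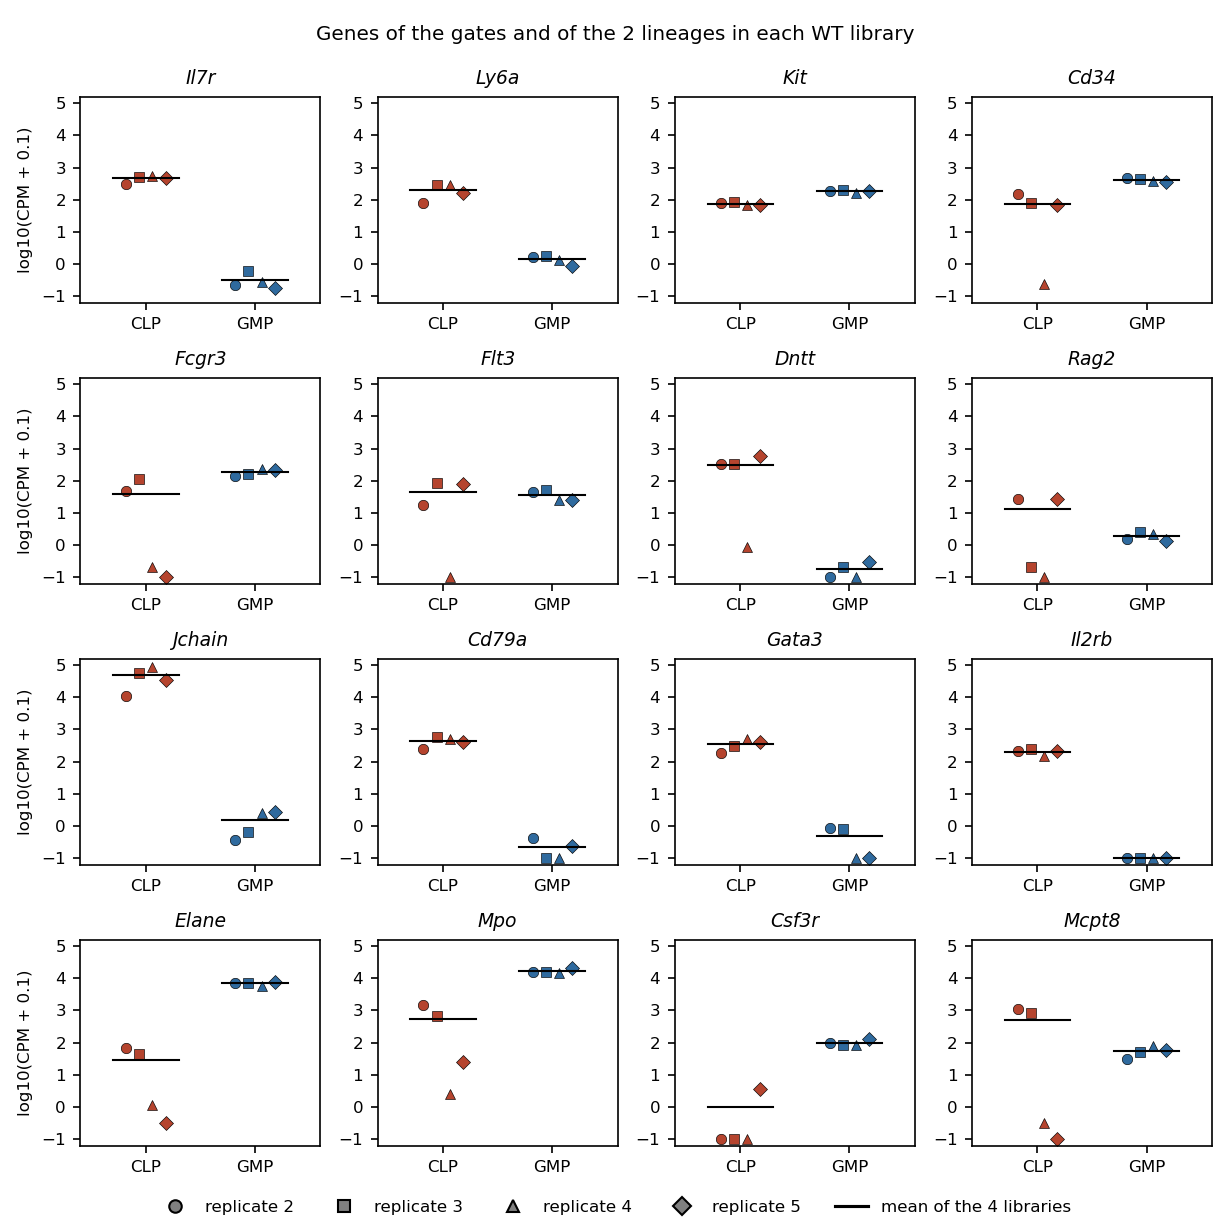
Level of 16 genes in each WT library as log10(CPM + 0.1), CLPs in red and GMPs in blue, with the replicate shown by symbol and the mean of the 4 libraries by a line. GMP points lie close together in all panels but those near 0 CPM, while CLP replicate 4 lies far below the other CLP libraries for Cd34, Flt3 and Dntt, and replicates 4 and 5 lie far below replicates 2 and 3 for Fcgr3, Elane and Mcpt8.

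Of 18 primary granule genes tested, 7 were called higher in GMPs, against 9.11% of all genes tested. The CLP libraries differed widely in what they held of these genes. Elane, neutrophil elastase, was at 67.6, 43.2, 1.08 and 0.225 CPM in CLPs and at 7210, 7374, 5558 and 7897 CPM in GMPs (-7.96 ± 1.76, adjusted p = 0.0133). Mpo, myeloperoxidase, was at 1498, 675, 2.38 and 24.8 CPM in CLPs and at 14820 to 20136 CPM in GMPs. Both genes were lower in every CLP library, with replicates 2 and 3 above replicates 4 and 5. Mpo was not called by edgeR (-4.91 ± 1.6, adjusted p = 0.0718), but it was by DESeq2 (adjusted p = 0.00258) and in the edgeR fit of all 46 libraries (0.00147). Without CLP replicate 2 or 4 it was called (-6.13, adjusted p = 0.0473, and -4.44, adjusted p = 0.0326). Prtn3, proteinase 3, was at 335, 65.0, 0.135 and 0.169 CPM against 1163 to 1673 CPM (adjusted p = 0.261), Ctsg, cathepsin G, at 636, 213, 0.649 and 0.300 CPM against 3104 to 3857 CPM (adjusted p = 0.219), and Ms4a3 at 49.6, 25.0, 0 and 0.0936 CPM against 644 to 891 CPM (adjusted p = 0.0934). In the fit of all 46 libraries Prtn3, Ctsg and Ms4a3 were called (adjusted p = 0.0259, 0.0333 and 0.00839), and DESeq2 called Ms4a3 (0.0125). Summed over the list, primary granule genes were at 1634 to 5361 CPM in CLPs and 32155 to 40800 CPM in GMPs.

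The other 11 of the 18 genes were not called, and the median over the list was -3.58. Leaving out single CLP libraries gave 5 to 11 calls. The called genes included Gstm1 (6.29 to 54.6 against 338 to 613 CPM, -4.01 ± 0.64, adjusted p = 0.00397), Serpinb1a, an inhibitor of the granule proteases (77.0 to 167 against 300.1 to 399 CPM, -1.34), and Lyz2, lysozyme, at 16.4, 30.5, 0.108 and 14.5 CPM against 176 to 238 CPM (-3.76, adjusted p = 0.0474). The call of Lyz2 was lost without CLP replicate 2, 3 or 5 or any 1 of the GMP libraries (adjusted p = 0.0515 to 0.0967). Plac8 was at 817, 397, 33.7 and 271 CPM against 1843 to 2745 CPM (-2.48, adjusted p = 0.0569) and was called without CLP replicate 2 or 4 (adjusted p = 0.0213 and 0.0128), by DESeq2 (0.014), with upper-quartile scaling (0.0433) and in the fit of all 46 libraries (8.97e-05). Nkg7, a cytotoxic granule gene that GMPs also express, was at 103 to 257 CPM in CLPs and 471 to 606 CPM in GMPs (-1.41, adjusted p = 0.00949). Srgn, the proteoglycan core of granules in many blood cells, was at 801 to 1376 against 1261 to 1590 CPM and was not called. The genes of later granules were low in GMPs and mostly missing from CLPs. Of 9 tested, 6 were called higher in GMPs (median -5.17, and -4.68 with the genes at 0 in CLPs at their count floor). On the full list 12 of 15 genes were at 0 in every CLP library. Such a gene could pass the low-count filter only through GMPs, so its call follows from how it was kept. Mmp8, for example, was at 1.14 to 2.08 CPM in GMPs and 0 in CLPs (at least 25.7-fold lower).

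The promoters of Elane, Prtn3 and Mpo are shown because they are leading granule genes and were chosen for holding the PU.1 motif GAGGAAGT, in capitals, on the coding strand. The motif is not more frequent among genes called higher in GMPs (3.81% of those with a window) than among all genes tested (4.09%) or genes called higher in CLPs (5.76%). The motif lies 85, 95 and 224 bases before the start of transcription in the 3 windows. They lie on the plus strand at chr10:79886062-79886361, chr10:79879417-79879716 and chr11:87793534-87793833, respectively (RefSeq, GRCm38.p6, 250 bases before the start to 50 after). Elane and Prtn3 are neighbours on chromosome 10.

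Elane: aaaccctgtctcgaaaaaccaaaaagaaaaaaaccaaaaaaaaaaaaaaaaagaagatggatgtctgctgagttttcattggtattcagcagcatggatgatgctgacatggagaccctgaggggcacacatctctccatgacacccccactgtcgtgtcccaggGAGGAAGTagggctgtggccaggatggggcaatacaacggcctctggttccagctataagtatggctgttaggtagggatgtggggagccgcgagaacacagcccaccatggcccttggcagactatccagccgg

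Prtn3: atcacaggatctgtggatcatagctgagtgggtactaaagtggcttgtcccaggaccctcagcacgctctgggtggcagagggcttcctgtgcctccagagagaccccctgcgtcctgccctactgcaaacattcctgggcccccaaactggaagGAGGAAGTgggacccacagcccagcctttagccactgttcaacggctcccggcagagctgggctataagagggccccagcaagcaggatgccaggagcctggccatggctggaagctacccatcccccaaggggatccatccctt

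Mpo: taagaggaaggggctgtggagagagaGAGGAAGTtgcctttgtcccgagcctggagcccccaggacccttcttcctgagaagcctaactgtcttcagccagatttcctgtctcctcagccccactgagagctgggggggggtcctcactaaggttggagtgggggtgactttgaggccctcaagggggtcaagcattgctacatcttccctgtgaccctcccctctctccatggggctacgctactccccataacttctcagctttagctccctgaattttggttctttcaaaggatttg

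Other myeloid genes were divided. Cebpe, the factor of the promyelocyte stage, was at 0 in every CLP library and at 29.8, 29.2, 35.7 and 52.8 CPM in GMPs (at least 588-fold lower in CLPs, edgeR adjusted p = 0.000725). Cebpe could pass the low-count filter only through GMPs, so its call follows from how it was kept. Csf3r, the G-CSF receptor, was at 0, 0, 0 and 3.63 CPM against 83.0 to 132 CPM (-6.71 ± 1.94, adjusted p = 0.0458). Trem3 was at 0.108 CPM in 1 CLP library and 0 in the other 3, against 49.2 to 91.6 CPM (-10.37 ± 1.07, adjusted p = 0.000833). It led the 10 genes named for a large fold and at least 50 CPM in GMPs. Gdf3 (45.4 to 68.9 CPM, -8.99), Tfec, a relative of the MITF factors (69.97 to 93.9 CPM, -7.32), Mrps30 (-6.55) and Tnfrsf21 (-5.99) were also named. Gsr, glutathione reductase (-4.84), Hp, haptoglobin (-4.82), and B3gnt2 (-4.15) completed the named 10 with Elane and Csf3r. Alas1 had a larger fold than B3gnt2 (-4.82, edgeR adjusted p = 6.5e-05) but was not among the named 10. The naming rule took its symbol for that of an antisense gene, which it is not. It was at 14.1 to 20.7 CPM in CLPs and 353 to 590 CPM in GMPs. Leaving out 1 library ended the call of Csf3r (CLP replicate 3 or 4 or any GMP library, adjusted p = 0.0518 to 0.104), Tnfrsf21 (CLP replicate 4 or any GMP library, 0.0581 to 0.093), Hp (CLP replicate 3 or any GMP library, 0.0891 to 0.098) and Tfec (any GMP library, 0.0536 to 0.0631). Of 21 myeloid transcription factors tested, 3 were called higher in GMPs (9.11% of all genes tested) and 4 in CLPs (7.44% of all). Their median was -0.94, and -0.519 without CLP replicate 4. Leaving out single CLP libraries gave 2 to 4 calls in GMPs, and DESeq2 gave 5. The first were Cebpe, Nfe2 (-2.01, adjusted p = 0.0475) and Myc, at 90.3 to 161 against 316 to 451 CPM (-1.62 ± 0.22, adjusted p = 0.00265). The latter were Egr1, at 700, 1422, 614 and 539 CPM against 21.7 to 59.5 CPM (4.30 ± 0.51, adjusted p = 0.00153), Egr2 (7.08), Klf4 (4.70) and Batf3 (7.27). Nfe2 lost the call without CLP replicate 3, 4 or 5 or any 1 of the GMP libraries (0.057 to 0.139), and Batf3 without GMP replicate 2, 3 or 5 (0.0859 to 0.0881). Egr1 and Egr2 are also immediate early genes that respond to handling and stimulation, and Batf3 belongs to dendritic cells.

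Spi1 (PU.1) was at 98.4, 58.3, 11.5 and 25.3 CPM in CLPs and at 138 to 192 CPM in GMPs and was not called by edgeR (-1.76 ± 0.58, adjusted p = 0.0751). It was called by DESeq2 (adjusted p = 0.0415), with upper-quartile scaling (0.0488), in the fit of all 46 libraries (0.00772) and without CLP replicate 2 (-2.34, 0.0153). Cebpa was at 7.74, 4.01, 0 and 0 CPM against 19.5 to 25.3 CPM (adjusted p = 0.36). Both were lower in every CLP library. Irf8, of the monocyte and dendritic branches, overlapped between the groups at 457, 213, 31.6 and 78.9 CPM against 117 to 202 CPM (adjusted p = 0.834), and Runx1 did too (38.3 to 147 against 62.6 to 88.1 CPM). Of 13 myeloid cytokine receptors, Csf2ra (-1.72, edgeR adjusted p = 0.0242) and Csf3r were called higher in GMPs (median -0.999), against 9.11% of all genes tested. The Csf2ra call was lost without GMP replicate 2, 4 or 5 (0.0565 to 0.0994). Without any 1 of those GMP libraries 0 receptors were called in GMPs, without CLP replicate 2 there were 4 (median -0.563), and DESeq2 called 3 in each direction. Of 13 monocyte genes, Ctss, cathepsin S, was higher in CLPs at 744 to 1960 against 9.06 to 15.1 CPM (6.61 ± 0.44, adjusted p = 0.000181), as was S100a4 (6.62 ± 0.33, adjusted p = 6.5e-05), while Vcan was called in GMPs. The median of the monocyte genes was -0.57, and leaving out single CLP libraries moved it from -2.98 (without replicate 2, with 3 genes called in GMPs) to 0.084 (without replicate 5, and 0.052 without replicate 4). Ctss is also the protease that prepares MHC class II molecules for peptide. The NADPH oxidase subunits Cybb (3.17, not called in the fit of all 46 libraries at an adjusted p of 0.0718) and Cyba (2.00) were higher in CLPs, and the other 4 tested, such as Rac2 (440 to 724 against 327 to 498 CPM), were not called (median 0.31).

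MHC class II genes were higher in CLPs, 6 of 10 tested, with a median of 3.89. Cd74, the invariant chain, was at 1824, 2998, 3020 and 1987 CPM in CLPs and at 0.159 to 1.10 CPM in GMPs (11.91 ± 0.95, adjusted p = 0.000301). H2-Eb1 was at 159 to 341 against 0.298 to 0.422 CPM (9.35 ± 0.36, adjusted p = 1.93e-05), H2-Aa at 226 to 520 CPM (7.96) and H2-Ab1 at 279 to 691 against 9.24 to 15.1 CPM (5.07). Each of these genes was high in all 4 CLP libraries, including replicate 4. MHC class II is carried by B cells, dendritic cells and other antigen-presenting cells. Of 13 MHC class I genes, 6 were called higher in CLPs (median 0.75). B2m was at 6411 to 12037 against 1808 to 2271 CPM (2.27 ± 0.25, adjusted p = 0.00105), H2-K1 was higher by 2.12 and H2-D1 by 1.95, whereas the immunoproteasome gene Psmb8 was not called (346 to 652 against 249 to 407 CPM).

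The STING pathway, the subject of the series, was compared in the same way. STING detects the product of cGAS when DNA is in the cytosol and drives interferon-stimulated genes. Tmem173, which encodes STING, was at 186, 80.8, 112 and 171 CPM in CLPs and at 61.9, 34.8, 39.9 and 64.7 CPM in GMPs (1.45 ± 0.33, adjusted p = 0.0158). Every CLP library lay above every GMP library, and the call was lost without GMP replicate 3 or 4 (adjusted p = 0.0515 and 0.0567). Of 10 genes of DNA and RNA sensing, the other one called was Ddx58, the RNA sensor RIG-I, at 27.0 to 72.5 against 3.60 to 6.77 CPM (3.50 ± 0.41, adjusted p = 0.00149), and the median was 0.58. Of 26 interferon-stimulated genes, 9 were called higher in CLPs and 1 in GMPs (median 1.38). Without GMP replicate 2, 3 or 4 the CLP count was 6, 5 and 5, and without CLP replicate 3 the GMP count was 3. Gbp2 was at 10.7, 38.5, 30.7 and 107 CPM against 6.67 to 8.80 CPM (2.55), and Irf7 was higher by 3.13. Gbp2 lost the call without any 1 of the GMP libraries (adjusted p = 0.0709 to 0.0798) and Irf7 without GMP replicate 2, 3 or 4 (0.0656 to 0.0761). The exception, Oas3, was at 0 in every CLP library and at 0.417 to 1.59 CPM in GMPs. Oas3 could pass the low-count filter only through GMPs, so its call follows from how it was kept. Tet2 itself was at 18.2, 22.5, 23.8 and 2.04 CPM in CLPs and 25.7 to 33.0 CPM in GMPs (-0.84 ± 0.64, adjusted p = 0.484). Of 7 enzymes of DNA methylation and demethylation, none was called by edgeR (2 lower in CLPs at an unadjusted p of at most 0.05) and 0 by DESeq2, with a median of -0.84. Leaving out CLP replicate 3 gave 1 call in GMPs and leaving out CLP replicate 4 gave 2. Dnmt1, the maintenance methyltransferase, was called without CLP replicate 4 (-1.44, edgeR adjusted p = 0.00752) and in the fit of all 46 libraries (-2.01, adjusted p = 0.0113), but not with all 8 libraries (-1.89, adjusted p = 0.149).

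The lists of growth and division had medians below that of all genes, and most of their members were not called. Over all genes tested, 9.11% were called higher in GMPs. Of 20 DNA replication genes, 4 were called higher in GMPs and the other 16 were not called (median -1.18). These were Mcm3 (53.9 to 141 against 219 to 330 CPM), Mcm5 (26.5 to 148 against 228 to 344 CPM), Mcm6 (56.0 to 335 against 553 to 689 CPM), all subunits of the replicative helicase, and the primase Prim1 (-1.04). Their sum over the list was 684 to 2215 CPM in CLPs and 3079 to 3768 CPM in GMPs. Pcna, at 133 to 260 against 220 to 288 CPM, overlapped. No gene of the 20 mitosis genes was called by edgeR, 4 were lower in CLPs at an unadjusted p of at most 0.05, and DESeq2 called 2 (median -0.91, and -1.37 and -0.558 without CLP replicate 2 or 4). The list sum was 1935, 733, 337 and 1101 CPM in CLP replicates 2 to 5 and 1756 to 2284 CPM in GMPs, so CLP replicate 2 was at the GMP level and replicate 4 lowest. Mki67 (45.9 to 147 against 80.5 to 107 CPM) and Top2a (38.8 to 255 against 242 to 262 CPM) overlapped. Leaving out 1 library gave 1 replication call (without GMP replicate 2) to 9 (without CLP replicate 2) and 0 to 6 mitosis calls (6 without CLP replicate 2). Mcm5 lost the call without CLP replicate 3 or 5 or GMP replicate 2, 3 or 5 (adjusted p = 0.0507 to 0.0668), and Mcm6 without CLP replicate 2 or 3 or any 1 of the GMP libraries (0.0668 to 0.101) or without the low-count filter (0.0536). Prim1 lay at the 2-fold limit and fell below it with RLE scaling (-0.998), without immunoglobulin genes (-0.986) and without CLP replicate 4 (-0.90) or GMP replicate 2 or 4 (-0.992 and -0.997).

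Among the G1 regulators, Ccnd2, the D cyclin of lymphoid cells (390 to 831 against 140 to 165 CPM, 1.93 ± 0.24), and Cdkn1a, the CDK inhibitor p21 (147 to 226 against 48.9 to 72.6 CPM, 1.67 ± 0.22), were higher in CLPs, and Cdk6 was higher in GMPs (60.9 to 424 against 647 to 787 CPM, -1.66, adjusted p = 0.0495, and 0.0855 to 0.11 without CLP replicate 3 or 5 or any 1 of the GMP libraries). Of 14 tested, 3 were called in CLPs and 1 in GMPs (median -0.21, and -0.394 to 0.088 without single CLP libraries). Of 17 glycolysis genes, Gpi1 (-1.56), Pgam1 (-1.81) and Pkm (-1.04) were called higher in GMPs and the other 14 were not called (median -0.83, with 3 to 7 called when a CLP library was left out). Pkm fell below 2-fold without CLP replicate 4 (-0.86), GMP replicate 5 (-0.94) or immunoglobulin genes (-0.98). The survival genes Bcl2, at 111 to 243 against 23.5 to 44.1 CPM (2.29 ± 0.30, adjusted p = 0.00233), and Mcl1, at 104 to 224 against 36.4 to 43.2 CPM (1.95 ± 0.25, adjusted p = 0.00216), were higher in CLPs. So were the death genes Bbc3 (Puma, 3.32) and Bik (7.47, adjusted p = 0.0513 without GMP replicate 4), and 6 of 14 BCL2 family genes in all (median 1.57). With the replicate block edgeR called neither Bbc3 nor Bik (adjusted p = 0.134 and 0.104), and 2 BCL2 family genes in all. Of 17 genes of stem and multipotent progenitors, 3 were called higher in GMPs, among them Adgrl4 (7.70 to 38.9 against 194 to 226 CPM, -3.13 ± 0.44, adjusted p = 0.00335) and Angpt1 (-1.87, adjusted p = 0.0281, lost without CLP replicate 2 or GMP replicate 2, 3 or 4 at 0.0508 to 0.0825), and the other 14 were not called (median -0.55, and -1.37, -0.193 and -0.965 without CLP replicate 2, 4 or 5, with 5 called without the last, and -0.269 without GMP replicate 2).

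**Figure D4:**
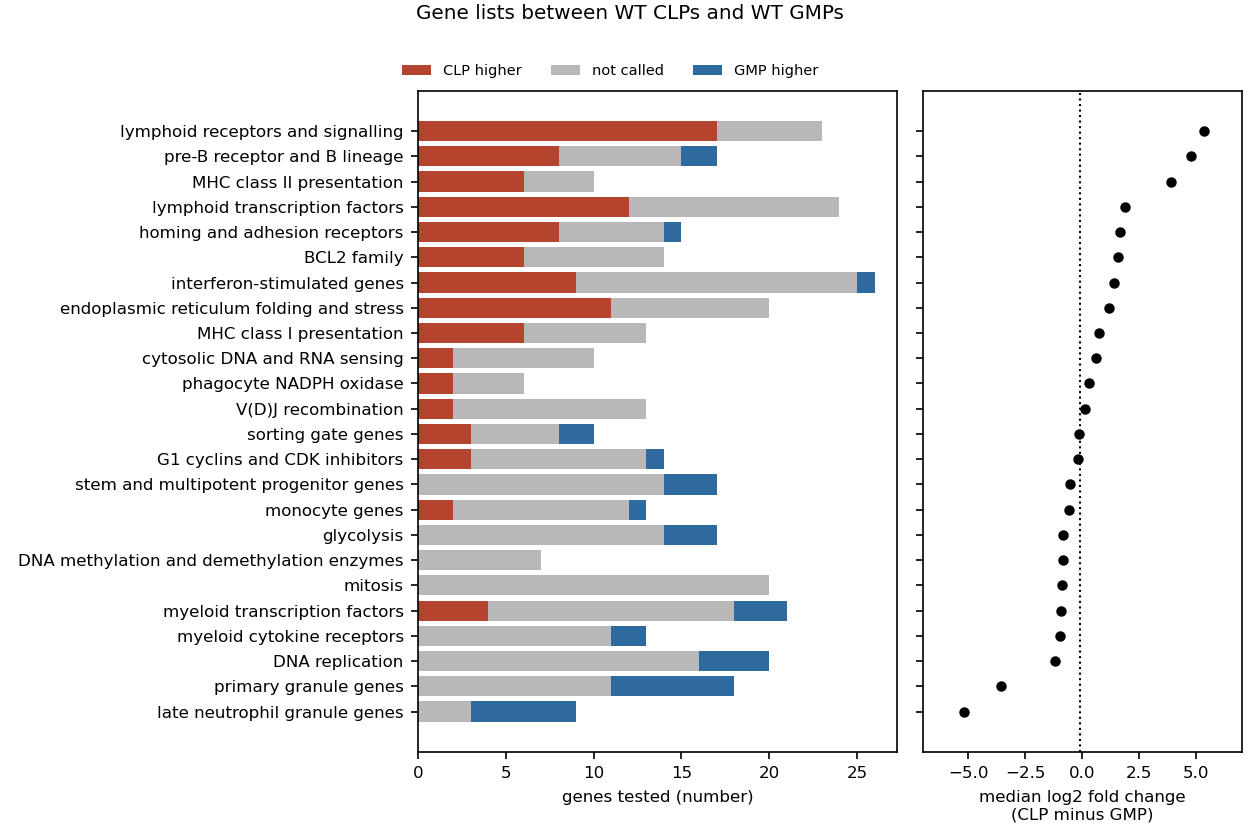
Genes tested in each of 24 lists, coloured by call (left), and the median log2 fold change of each list, CLP minus GMP (right), with the median of all genes tested (-0.10) as a dotted line. Medians run from 5.35 for lymphoid receptors and signalling to -5.17 for late neutrophil granule genes.

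Markers of other cells that the sorted fractions could hold moved with several of these results. Later B cell markers summed to 929 to 14089 CPM in CLPs and 1.39 to 7.09 CPM in GMPs, with 2 of 4 tested called (Iglc2 and Ms4a1) and Pax5 and Cd22 at 0 in every CLP library. T, NK and innate lymphoid markers summed to 709 to 1007 against 484 to 620 CPM, 4 of 7 tested called higher in CLPs and Nkg7 in GMPs, while 5 of the 12 markers were too low to be tested and Cd3e was at 0 in CLPs. Dendritic cell markers summed to 190 to 458 against 74.3 to 108 CPM, with 2 of 6 called. Mast cell, basophil and eosinophil markers summed to 2747, 3254, 831 and 227 CPM in CLP replicates 2 to 5 and 120 to 264 CPM in GMPs. Within that list the basophil proteases and the IgE receptor were confined among CLPs to replicates 2 and 3: Mcpt8 was at 1139, 833, 0.216 and 0 CPM, Prss34 at 361, 1220, 0.432 and 0.300 CPM, Fcer1a at 340, 195, 0.108 and 0.0749 CPM and Ms4a2 at 145, 51.3, 0.216 and 0 CPM. Those are the CLP libraries with the higher Mpo, Elane, Ctsg and Fcgr3 values. Mcpt8 was not called (adjusted p = 0.427). Prg2, a granule protein of eosinophils and also of plasma cells, was called at 234, 743, 815 and 173 CPM against 0 to 12.1 CPM (7.15, adjusted p = 0.0404), but not without CLP replicate 3 or 4 or GMP replicate 3 or 5 (0.0549 to 0.12).

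Macrophage markers summed to 0.264 to 33.4 CPM in CLPs and 10.0 to 20.7 CPM in GMPs, with C1qa, C1qb, C1qc, Cd5l and Marco at 0 in every CLP library. Mature neutrophil markers were at 0 to 5.65 against 26.9 to 51.5 CPM, 3 of 4 called higher in GMPs. On that list 7 of 8 genes were at 0 in every CLP library. The low-count filter could keep such genes only through GMPs, so their calls follow from it. Erythroid markers were at 89.8 to 165 against 26.7 to 94.3 CPM, with Car2, which lymphoid and myeloid cells also express, called in CLPs (1.98). Megakaryocyte markers were at 0.318 to 6.97 against 18.5 to 53.3 CPM, with 3 of 6 called in GMPs, among them Pf4 (-5.88). Without CLP replicate 2 there were 5 such calls, with DESeq2 5 of 7 tested, and with the replicate block 1. Stromal and endothelial markers were at 0.351 to 13.2 against 0.606 to 1.31 CPM. The part of these cells in the differences above was not tested. With every immunoglobulin gene and Jchain taken out of the table before scaling, 1156 genes were called higher in CLPs and 1278 in GMPs, and 2376 of the calls were shared with the full table.

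The same comparison in Tet2-/- mice used libraries that had no part in the WT result. Of 15723 genes tested, 561 (3.57%) were called higher in Tet2-/- CLPs and 652 (4.15%) in Tet2-/- GMPs, with a median of -0.04. Leaving out Tet2-/- CLP replicate 2 gave 856 and 1032, replicate 3 gave 1511 in favour of GMPs and replicate 5 gave 1256, and leaving out any 1 of the Tet2-/- GMP libraries gave 321 to 347 in favour of CLPs. The Tet2-/- CLP libraries again resembled each other less (r = 0.488 to 0.698) than the GMP libraries (0.963 to 0.972). Of the 1148 WT calls in favour of CLPs, 1053 were tested in Tet2-/- cells, 1005 (95.4%) had the same direction and 394 were called. Those were 34.3% of the WT calls and 70.2% of the 561 Tet2-/- calls. Of the 1406 WT calls in favour of GMPs, 1251 were tested, 924 (73.9%) had the same direction and 231 were called, 16.4% of the WT calls and 35.4% of the 652 Tet2-/- calls. Over all genes tested in both genotypes the direction was shared by 70.1%.

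Several lymphoid genes were called in both genotypes. Others called in WT cells were not called in Tet2-/- cells, such as Cd79b (edgeR adjusted p = 0.0741) and Ms4a1 (0.263). Il7r was at 1086, 264, 228 and 328 CPM in Tet2-/- CLPs and at no more than 0.368 CPM in Tet2-/- GMPs (11.22, adjusted p = 0.00207). Gata3 was at 116 to 137 CPM (8.25, adjusted p = 0.00237), Cd79a at 38.2 to 293 CPM (12.22, adjusted p = 0.00414), Cd74 at 991 to 1468 CPM (11.88, adjusted p = 0.00306) and Mzb1 at 46.1 to 1031 CPM (13.49, adjusted p = 0.00496). Jchain was at 22.9, 7895, 40744 and 45648 CPM (14.13, adjusted p = 0.0223), in the same order as the immunoglobulin share. Irf4 was at 0.0379 CPM in Tet2-/- CLP replicate 2 and at 52.5 to 201 CPM in the others (adjusted p = 0.0749). Replicate 2, the library with little immunoglobulin RNA, had the highest Vpreb1 and Igll1 levels of the Tet2-/- CLP libraries. Vpreb1 was at 85.8, 0.0806, 0 and 13.4 CPM, Igll1 at 110, 0, 6.86 and 59.8 CPM and Rag1 at 9.09, 2.27, 0.0586 and 18.6 CPM in Tet2-/- CLPs. None of the 3 was called. Vpreb2, another surrogate light chain gene, was at 0, 10.3, 0 and 10.6 CPM, at 0 in replicate 2, and was too low to be tested. Rag2 was called (34.3, 2.42, 18.7 and 67.7 CPM, 3.73, adjusted p = 0.0431).

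Granule genes were again variable. Mpo was at 1.66, 7379, 1576 and 2202 CPM and Elane at 0.202, 2645, 34.995 and 749.7 CPM in Tet2-/- CLPs, and neither was called (-3.02, adjusted p = 0.335, and -3.33, adjusted p = 0.398). The CLP library lowest in both was replicate 2. By list, Tet2-/- cells had 9 of 24 lymphoid transcription factors, 14 of 23 lymphoid receptors, 5 of 17 pre-B and B-lineage genes and 8 of 9 MHC class II genes called higher in CLPs, and 4 of 18 primary granule genes called higher in GMPs. Over all genes tested in Tet2-/- cells, 3.57% were called higher in CLPs and 4.15% in GMPs. Tmem173 was at 71.5 to 164 against 62.5 to 77.7 CPM in Tet2-/- cells and was not called (0.90, adjusted p = 0.109).

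**Figure D5:**
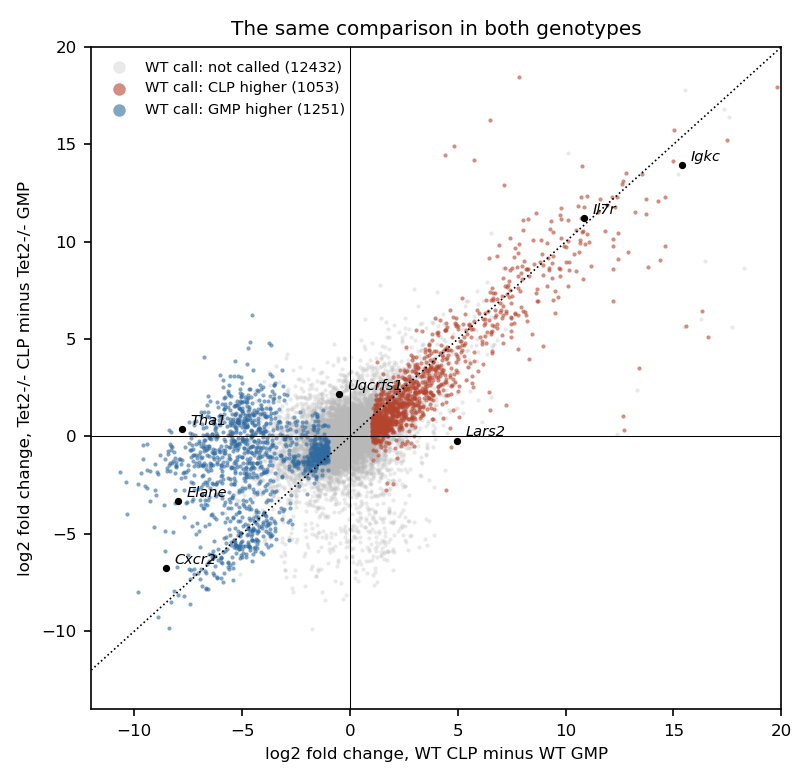
Log2 fold change, CLP minus GMP, in WT libraries (x axis) against Tet2-/- libraries (y axis) for 14736 genes tested in both, coloured by the WT call, with the line of equal change dotted. Of the genes called higher in WT CLPs (red), 1005 of 1053 lie above 0 in Tet2-/- cells, and of those called higher in WT GMPs (blue), 924 of 1251 lie below 0. The colours were chosen by the WT values, so the distance of the points along the x axis is no result.

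The test of the difference itself, an interaction of genotype and population in the 16 libraries, called 18 of 17889 genes (0.101%). With the replicate block within genotype edgeR called 0, with a smallest adjusted p of 0.577 and 776 genes at an unadjusted p of at most 0.05. CPM values were scaled within each genotype, so levels of the 2 genotypes are set side by side only, and genotypes were not tested within a population. None of the 18 called genes was in a list or among the genes named for a large fold. Tha1, threonine aldolase, was at 0 in every WT CLP library and at 15.7, 20.1, 9.48 and 6.21 CPM in Tet2-/- CLPs (edgeR interaction adjusted p = 0.00639). Its WT fold is a bound, at least 99.1-fold lower in CLPs. The fitted interaction of 8.30 on the log2 scale is therefore no measured difference. The same holds for other called genes, such as Rap2a and Lactb, at 0 in every WT CLP library. Gm13205 and Rec8 were at 0 in every Tet2-/- CLP library. Uqcrfs1, a subunit of respiratory complex III, differed by 2.71 (adjusted p = 0.00887), with 176 to 258 CPM in WT GMPs and 37.1 to 48.8 CPM in Tet2-/- GMPs. Anp32b differed by 2.67 (adjusted p = 0.0215), with 14.5 to 32.9 CPM in WT CLPs and 38.6 to 61.9 CPM in Tet2-/- CLPs, and 146 to 245 CPM in WT GMPs and 52.4 to 81.5 CPM in Tet2-/- GMPs. Cox5a differed by 1.74 (adjusted p = 0.0233), with 77.5 to 123 CPM and 158 to 192 CPM in WT and Tet2-/- CLPs and 195 to 289 CPM and 104 to 149 CPM in WT and Tet2-/- GMPs. Lars2 was at 282 to 323 CPM in WT CLPs and 2.32 to 40.1 CPM in Tet2-/- CLPs (-5.16, adjusted p = 0.0312), but part of Lars2 resembles mitochondrial ribosomal RNA, so that its counts are uncertain. Leaving out single libraries gave 6 to 88 calls, the most without Tet2-/- CLP replicate 2.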

How the data were processed

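The measurement was bulk RNA-seq of bone marrow cells sorted as CLPs or GMPs. The authors trimmed reads with Trim Galore and mapped them to mm10 with Hisat2, and the deposited values are raw whole-number counts, 55421 genes by 46 libraries. The submitters' processing notes list Trim Galore 0.6.7, HISAT2 7.5.0 and DESeq2, other versions than the methods give. The counting program and annotation are not given in the sources used here. Of 119 repeated symbols the row with most counts was used.

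Counts were tested with edgeR 4.0.16 (R 4.3.3) by filterByExpr, TMM scaling and a quasi-likelihood fit of the 2 groups with a prior count of 2. A gene was called at a Benjamini-Hochberg adjusted p of at most 0.05 over all genes tested and at least 2-fold. CPM values were scaled by TMM within the 8 libraries of a genotype and are not per length, so genes are compared between groups and not with each other. A fold against a group at 0 in every library is a lower bound from 3 counts per library. Library measures had a two-sided exact permutation test. Alternatives were RLE and upper-quartile scaling, no low-count filter, no fold limit, DESeq2 1.42.0, all 46 libraries in one fit, a replicate block, leaving out each library and, added after seeing the data, leaving out immunoglobulin genes and Jchain. Figures were drawn with matplotlib 3.10.9 in Python 3.11.15.

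The comparison and gene lists were chosen with earlier results of these data known. Named genes were members of the lists and the 10 called genes of largest fold in each direction with a mean of at least 50 CPM and no overlap between groups. Symbols that were a Gm number, a Rik clone or had the ending of an antisense name were left out. The 10 for GMPs left out Alas1, whose fold was larger than that of B3gnt2, because its symbol has such an ending. Mzb1, Prdm1, Sdc1, Tnfrsf17, Derl3, Slamf7, Il2rb, Ccr8, Tcrg-C1, Il10, Stab2, Alas1, Iglc1, Ighg2b and the genes of the genotype interaction were chosen after their values were seen. Reads, splicing and the 9 libraries of the second table were not analysed here.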

Additional observations from a re-analysis of the deposited data

Results flagged for a closer look

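Within a group of 4 libraries, a library that stood far from the other 3 was found for 22 of 320 groups tested, where chance gives about 1 in 20. Among immunoglobulin genes these were Igkv19-93 in CLP replicate 4 (16450 CPM), Igkv5-43 in CLP replicate 3 (10180 CPM), Igkv3-2 in CLP replicate 5 (9805 CPM) and Iglc2 in GMP replicate 3 (2.957 CPM). Among other lymphoid and antigen-presentation genes, Bcl11b was highest in CLP replicate 4 (49.27 CPM), Thy1 (36.92 CPM) in CLP replicate 5 and H2-D1 (4176 CPM) in CLP replicate 3, while Gimap6 (7.436 CPM) stood out in GMP replicate 2 and Cd53 (377.7 CPM) in GMP replicate 4. S100a4 was highest in CLP replicate 5 (204.4 CPM). Among GMP genes, CLP replicate 2 held Tfec at 1.888 CPM and CLP replicate 5 held Csf3r at 3.632 CPM, with each gene at 0 in the other 3 CLP libraries. In GMPs, Cxcr2 (13.43 CPM) and Derl3 (2.585 CPM) were highest in replicate 2, Prss34 (15.19 CPM) in replicate 3, Plac8 (2745 CPM) and Prg2 (12.13 CPM) in replicate 4, and Nkg7 (606.2 CPM), Ctsg (3857 CPM) and Calr (1516 CPM) in replicate 5. Top2a (242.2 CPM) and the number of genes detected (19680) were lowest in GMP replicate 2.

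The CLP against GMP difference changed with genotype, by the interaction test, for Tha1 (8.3 on the log2 scale, Tet2-/- minus WT), Uqcrfs1 (2.712), Anp32b (2.669), Cox5a (1.741) and Lars2 (-5.159). The value for Tha1 is fitted against WT CLP libraries at 0 and is no measured difference.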

How the results depend on the processing

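Of the WT calls, 1148 higher in CLPs and 1406 in GMPs, DESeq2 gave 1923 and 2560 and included 2536 of the 2554, and the fit of all 46 libraries gave 2234 in GMPs. Leaving out single libraries gave 869 to 1454 and 1283 to 2289. RLE and upper-quartile scaling, no low-count filter, no fold limit and the removal of immunoglobulin genes kept both counts within 1.5 times. No source used here says that a replicate number marks 1 mouse, so the fit without the block was kept. Deviations of same-numbered libraries correlated at 0.013 to 0.092. As the WT CLP libraries correlated with each other at only 0.599 to 0.669, these low values cannot exclude a shared mouse. With the replicate block the counts were 542 and 139 (658 of 681 shared), and the block turned the direction of Flt3 (-0.75), Rag2 (-0.171), Irf8 (-0.292), Mcpt8 (-1.821), Runx1 (-0.191) and Ms4a2 (-1.322), none of which was called. The block left uncalled Elane (adjusted p = 0.0636), Cebpe (0.0541) and Csf3r (0.057). Runx1 also turned with upper-quartile scaling (-0.057) and with all libraries (-0.084). Without single libraries Flt3 ran from -0.156 to 0.796, Irf8 from -0.493 to 0.741, Mki67 from -0.414 to 0.132 and Runx1 from -0.415 to 0.292. Of 186 genes followed, 137 kept direction and call under the block, 176 with DESeq2, 173 without the filter, 183 with RLE scaling and 156 to 177 without 1 library. Calls were lost without the filter for Igkv8-19, Ighv4-1, Ighv1-9, Prg2, Csf3r, Tnfrsf21, Hp, Lyz2, Nfe2, Mcm6, Cdk6, Igll1 and Rb1 (adjusted p = 0.0505 to 0.0809), with RLE scaling for Nfe2, Prim1 and Cdk6, in the fit of all 46 libraries for Cybb, Igll1, Satb1 and Chil3, and without immunoglobulin genes for Nfe2, Prim1, Cdk6 and Pkm. DESeq2 gave no adjusted p for Igkv19-93, Igkv5-43 and Igkv3-2. In Tet2-/- cells the counts were 67 and 1 with the block, 312 and 111 without the filter and 1519 and 1620 with DESeq2, and without single libraries 321 to 856 and 602 to 1511. The genotype interaction gave 18 calls, 11 without the filter, 6 to 88 without single libraries, and 0 in edgeR with the block within genotype, where 776 genes passed at an unadjusted p of at most 0.05 and the smallest adjusted p was 0.577. The interaction was not run in DESeq2. The CLP minus GMP difference in mitochondrial share ran from -1.64 to -0.914 percentage points, with exact permutation p = 0.0286 without CLP replicate 2. The causes of these shifts were not tested. Depth limits genes at 0 in a group to a floor of 3 counts per library.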
